A study of Mus musculus with 4 samples.

Results

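The subject is the cell cycle machinery, 57 genes for S phase, G2 and mitosis, and for the cyclin-dependent kinases (CDKs) with their inhibitors, out of 20656 genes that the array names. They were chosen as a list of gene symbols, not by a cutoff on their signal, but with earlier results of these data known. Every array probe whose RefSeq transcript belongs to one of them was read. All 57 had a probe. The array carried 76 such probes, 1 for 43 of the genes, 2 for 9 and 3 for 5. For 55 genes the probe used was well above background on all 4 arrays, so that none of them entered the comparison through 1 fraction alone. The exceptions were Cdk6, which failed that mark on every array, and Cenpf, which met it on replicate 2 of each fraction and not on replicate 1.

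RFP-positive cells were compared with RFP-negative cells, each on 2 one-colour Agilent arrays. RFP-positive and RFP-negative cells were both derived from the mouse embryonic stem line EB5, into which a Hoxb6 reporter that makes a red fluorescent protein (RFP) had been introduced. Both had differentiated for 6 days on OP9 stromal feeder cells and both were sorted as positive for Flk-1, the VEGF receptor encoded by Kdr, so that by their labels they differed in the reporter. Both fractions thus come from 1 cell line, OP9 is a mouse line whose transcripts the probes can also bind, and nothing in the labels says that the replicates were separate cultures, so p-values measure only the spread between these samples, which may be technical. Levels below are log2 values of the signal over the 75th percentile of its own array. A difference is the RFP-positive mean minus the RFP-negative mean, with the standard error (SE) of the fit.

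Hoxb6 could not serve to check the labels, because its probe did not stand well above background on a single array. Kdr stood at 4.41 and 4.36 in RFP-positive cells and at 4.18 and 4.33 in RFP-negative cells. Between 55.2% and 59.3% of the spots were well above background on each array, and no spot was saturated. Of the arrays, RFP-positive replicate 2 stood apart, with Pearson correlations across the 13429 genes tested of 0.950 to 0.964 with the other 3, against 0.974 to 0.982 among those. These are correlations across genes, which are not independent replicates.

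The cell cycle is driven by CDKs that are active only when bound to a cyclin. D cyclins with CDK4 or CDK6 start the phosphorylation of the retinoblastoma (Rb) family, which frees E2F factors to switch on the genes of DNA replication. Cyclin E and cyclin A with CDK2 then carry S phase, and cyclin B with CDK1 carries mitosis, until the anaphase-promoting complex (APC/C) marks the mitotic cyclins for destruction. CDK inhibitors of the Cip/Kip and INK4 families hold these kinases back. Embryonic stem cells are known for fast cycles with a short G1, and lengthening of G1 accompanies their differentiation.

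Transcription of these genes is known to follow a pair of promoter programmes. E2F sites serve the S phase genes. The cell cycle genes homology region (CHR), bound by the DREAM and MYB-MuvB complexes, together with CCAAT boxes, bound by NF-Y, serves the G2 and mitosis genes. RefSeq promoters on GRCm38.p6, from 250 bases before to 50 after the annotated start, were found for 47 of the 57 members, in 53 windows. They were searched on both strands for E2F letters (TTTCCCGC, TTTGGCGC, TTTCGCGC or TTCCCGCC, of which the first and last can overlap), CHR letters (TTTGAA or TTCGAA) and CCAAT. E2F letters lay in 7 of 11 windows of the replication genes (63.6%), against 3.49% of all 32851 windows in the table. CHR letters lay in 16 of 22 windows of the 3 mitotic groups (72.7%), against 19.2% of all windows, and each of the 16 also held CCAAT. A match describes the letters and is not a binding site.

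The promoters of 4 members whose arrays did not overlap between the fractions are shown, chosen after their values were seen, because they hold these letters and represent both directions of difference. Capitals mark the matches. Ube2c lies at chr2:164769679-164769978 (plus strand), Plk1 at chr7:122159185-122159484 (plus strand), Mki67 at chr7:135716330-135716629 (minus strand) and Cdc25a at chr9:109875329-109875628 (plus strand).
Ube2c: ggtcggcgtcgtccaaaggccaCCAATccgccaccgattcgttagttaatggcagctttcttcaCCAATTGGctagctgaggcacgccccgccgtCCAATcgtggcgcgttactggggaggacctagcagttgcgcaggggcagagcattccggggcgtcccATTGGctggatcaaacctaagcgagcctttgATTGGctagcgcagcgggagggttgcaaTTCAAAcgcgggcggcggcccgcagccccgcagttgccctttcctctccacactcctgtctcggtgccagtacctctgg
Plk1: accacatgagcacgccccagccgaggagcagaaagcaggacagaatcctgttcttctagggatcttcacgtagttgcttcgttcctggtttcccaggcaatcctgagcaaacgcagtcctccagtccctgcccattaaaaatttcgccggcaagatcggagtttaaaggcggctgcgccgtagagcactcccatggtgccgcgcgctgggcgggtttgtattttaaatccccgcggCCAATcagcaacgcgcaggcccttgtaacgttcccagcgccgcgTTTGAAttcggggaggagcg
Mki67: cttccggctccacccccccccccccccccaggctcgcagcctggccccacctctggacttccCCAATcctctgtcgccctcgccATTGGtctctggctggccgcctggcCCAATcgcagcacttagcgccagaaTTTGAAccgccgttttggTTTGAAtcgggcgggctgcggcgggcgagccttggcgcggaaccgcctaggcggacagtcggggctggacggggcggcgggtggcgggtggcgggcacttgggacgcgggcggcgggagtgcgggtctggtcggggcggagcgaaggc
Cdc25a: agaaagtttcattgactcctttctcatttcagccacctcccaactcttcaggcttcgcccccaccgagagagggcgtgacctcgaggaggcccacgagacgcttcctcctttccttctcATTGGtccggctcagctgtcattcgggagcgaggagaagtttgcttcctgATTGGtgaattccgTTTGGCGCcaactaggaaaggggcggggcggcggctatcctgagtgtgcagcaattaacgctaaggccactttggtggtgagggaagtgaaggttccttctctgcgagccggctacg

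In Ube2c the single CHR match began 29 bases before the start, behind 6 matches to CCAAT, 2 of which overlap in a palindrome. Plk1 had 1 CHR match, after the start, and 1 CCAAT match, which began 14 bases before the start. Mki67 held 2 CHR matches, which began 116 and 98 bases before the start, and 3 CCAAT matches. Cdc25a had no CHR letters in this window and had 1 E2F match, which began 67 bases before the start, with 2 CCAAT matches. Ube2c, Plk1 and Mki67 were lower and Cdc25a was higher in RFP-positive cells without overlap, with the values given below. Other members with such letters went the other way. Cdc20 held CHR and CCAAT letters and was higher without overlap by 0.11. Cdkn2a held E2F letters and was lower without overlap, at −0.81. Whether letters and direction go together was not tested.

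No member differed between the fractions past the threshold. In the limma fit over 13429 genes with Benjamini-Hochberg adjustment, 0 of 55 members had an adjusted p of 0.05 or less, against 0% of all genes tested, and the lowest adjusted p of a member was 0.745. Before adjustment, 3 members (Ube2c, Cdkn2a and Cdkn2b) had a p under 0.05, all lower in RFP-positive cells. Of all genes tested 6.49% reached that level in either direction and 3.72% as lower. The design is small. An exact permutation of 2 arrays against 2 cannot give a two-sided p under 0.333, and the median SE of a member's difference was 0.25.

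Without overlap between the fractions, 19 of 55 members were lower in RFP-positive cells (34.5%), against 21.6% of all genes tested, and 10 were higher (18.2%), against 18.8%. In either direction 40.3% of all genes were without overlap, and among genes well above background on all 4 arrays, as the members were, 20.4% were lower and 18.9% higher. Over all 55 the difference was below 0 for 36 (65.5%), against 54.7% of all genes. The median member difference was −0.14, and the median of all genes was −0.051. Against the RFP-negative mean, the members' median was −0.084 on RFP-positive replicate 1 and −0.19 on replicate 2, while the median of all genes was 0.013 and −0.099. Leaving out RFP-positive replicate 2 therefore left a median member difference of −0.084. The counts depended on the scaling. With median scaling 13 members were lower (23.6%), against 16.6% of all genes, and 11 were higher (20.0%), against 24.4%. A count without overlap grows when an array is left out, since fewer arrays have to be separated. Without RFP-positive replicate 1, 32 members were lower (58.2%), against 46.9% of all genes, and 17 higher (30.9%), against 34.5%. Without RFP-positive replicate 2, 23 members were lower (41.8%) and 16 higher (29.1%), against 32.0% and 34.3% of all genes. Without RFP-negative replicate 1, 27 were lower (49.1%) and 17 higher (30.9%), against 34.2% and 31.1%.

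Member differences were mostly small. Only 6 of 55 (10.9%) reached 0.5 on the log2 scale in either direction, against 26.0% of all genes tested and 22.2% of the 12419 genes well above background on all 4 arrays. The median absolute difference of members was 0.22, and the median gap between replicates of one fraction was 0.25 in RFP-positive and 0.18 in RFP-negative cells. The median absolute difference thus lay below the median RFP-positive gap and above the median RFP-negative gap. A difference is taken between means of arrays and a gap between single arrays, which vary more than means. These medians therefore cannot decide whether the fractions differed by more than replicates do.

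**Figure D1:**
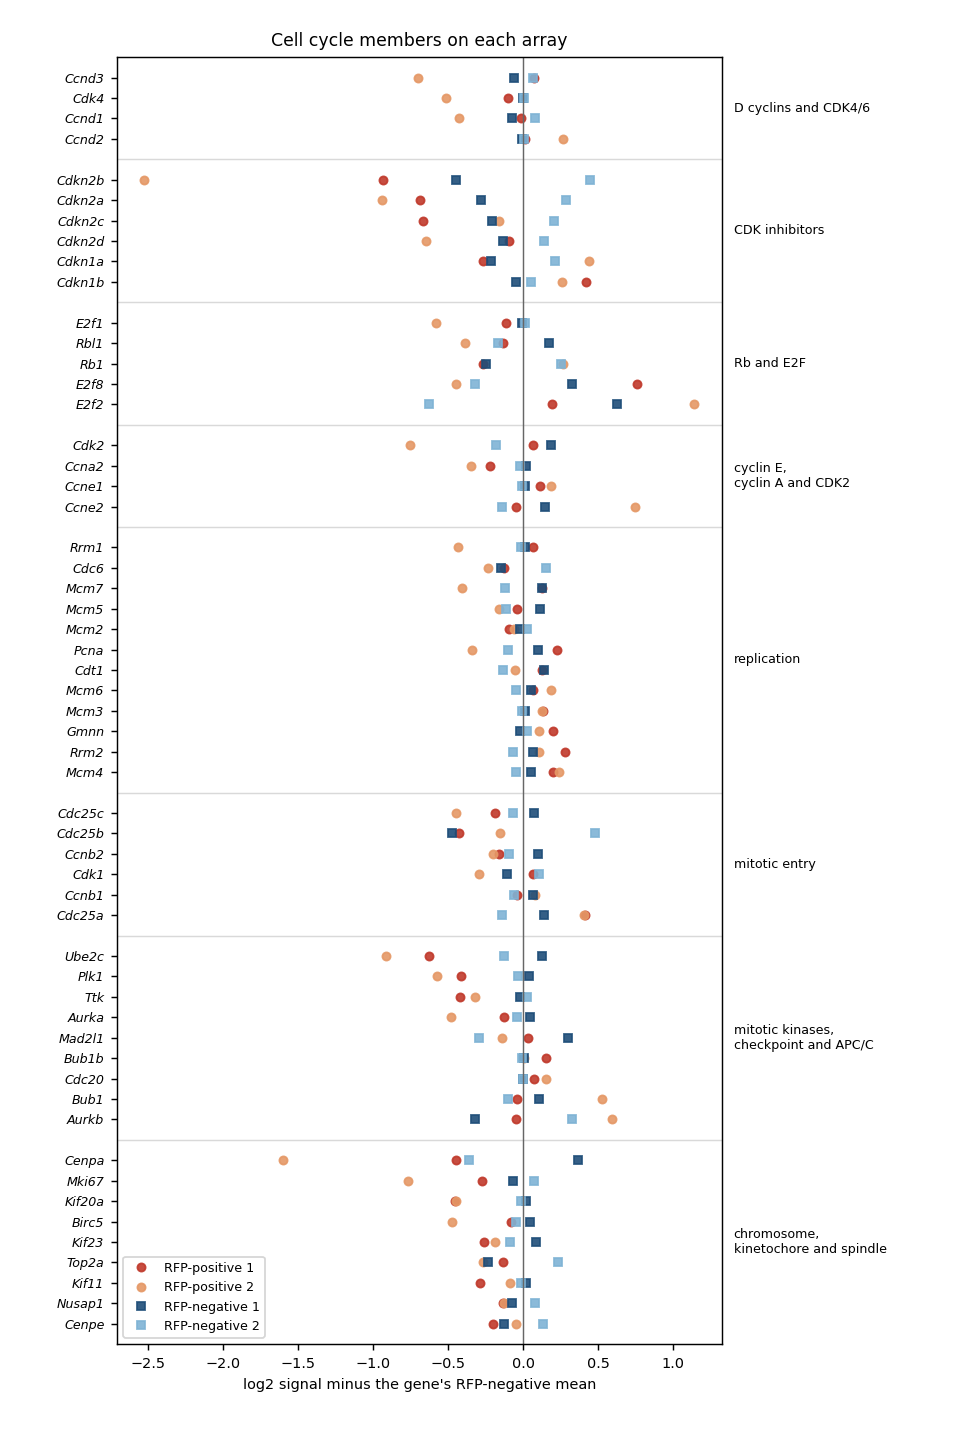
Each of the 55 tested members is a row, grouped by role, and each point is 1 array's log2 signal minus that gene's RFP-negative mean (circles, RFP-positive; squares, RFP-negative). Most points lie within 0.5 of 0, the replication rows are the tightest, and Cdkn2b, Cenpa and Cdkn2a reach farthest to the left.

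**Figure D2:**
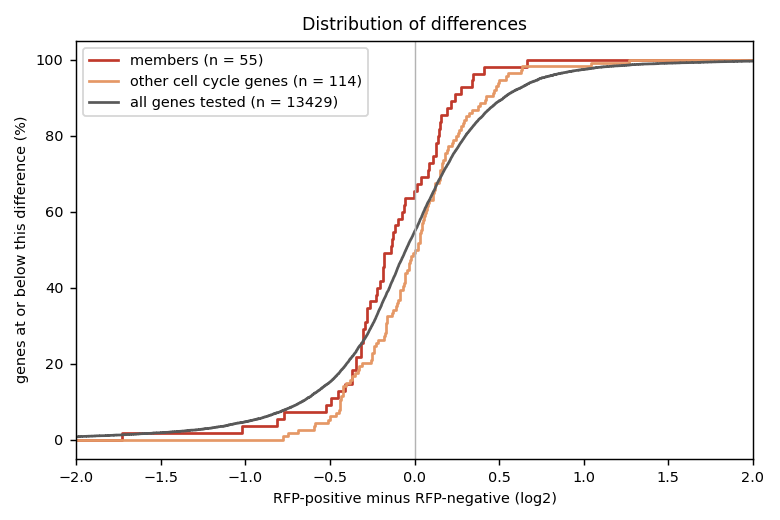
Cumulative share of genes by their difference (RFP-positive minus RFP-negative, log2) for the 55 members, 114 other cell cycle genes and all 13429 genes tested. The member curve crosses 0 at 65.5% and that of all genes at 54.7%, and both cell cycle curves are steeper than that of all genes.

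The CDK inhibitors held the largest member difference, that of Cdkn2b. INK4 proteins bind CDK4 and CDK6, and the INK4 genes Cdkn2a and Cdkn2b are neighbours on mouse chromosome 4. Cdkn2a, which also encodes the ARF protein that stabilises p53, had −0.39 and −0.63 in RFP-positive cells, against 0.02 and 0.59 in RFP-negative cells. Its difference was −0.81 (SE 0.30, 95% interval −1.59 to −0.039, limma adjusted p 0.745), −0.53 without RFP-negative replicate 2 and −1.27 as the mean of its probes. Cdkn2b was at −2.40 and −3.98 in RFP-positive cells and at −1.91 and −1.01 in RFP-negative cells. Both genes were thus lower on each RFP-positive array than on either RFP-negative array. The Cdkn2b difference of −1.73 (SE 0.63, limma adjusted p 0.745) was −0.93 without RFP-positive replicate 2 and −0.69 with normexp background correction and quantile scaling, where Cenpa, at −0.87, was the member farthest from 0. Each gene has a second probe, which failed the background mark on all 4 arrays but enters the mean of its probes. That mean gave −1.21 for Cdkn2b. The Cdkn2b level of −3.98 on RFP-positive replicate 2 was close to −4.54, the lowest level well above background on that array.

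The other INK4 genes overlapped between the fractions. Cdkn2c had −1.52 and −1.01 in RFP-positive cells, against −1.06 and −0.64 in RFP-negative cells, and its difference of −0.41 was −0.16 without RFP-positive replicate 1. Cdkn2d was at 4.50 and 3.95 in RFP-positive cells and at 4.46 and 4.73 in RFP-negative cells, and its difference of −0.37 was −0.094 without RFP-positive replicate 2. The Cip/Kip gene Cdkn1b, whose protein p27 restrains cyclin E-CDK2, stood the other way. It had 3.03 and 2.87 in RFP-positive cells, against 2.57 and 2.66 in RFP-negative cells, with no overlap and a difference of 0.34 (SE 0.23, 95% interval −0.26 to 0.93). Cdkn1a, the p53 target that encodes p21, had 0.47 and 1.18 in RFP-positive cells, against 0.53 and 0.95 in RFP-negative cells. Its replicates 2 were above its replicates 1 in both fractions, and its second probe was lower in RFP-positive cells by −0.26 where the first was at 0.085. Of the 6 inhibitors 2 were lower (33.3%) and 1 higher (16.7%) without overlap, against 21.6% and 18.8% of all genes. Their median of −0.39 was −0.22 without RFP-negative replicate 2.

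Most markers of stroma and fat cells were lower in RFP-positive cells without overlap, none past the threshold. Each count in this paragraph stands against 21.6% lower and 18.8% higher without overlap among all genes tested. For the list of 8 OP9 stroma and fibroblast markers the summed linear signal, in units of the array's 75th percentile, was 3.64 and 3.09 in RFP-positive cells and 5.91 and 6.51 in RFP-negative cells. Of its 6 genes tested, 5 were lower without overlap, and Postn and Dcn failed the background mark on all 4 arrays. The 7 adipocyte markers summed to 19.1 and 13.5 in RFP-positive cells, against 46.5 and 55.2 in RFP-negative cells, and all 7 were lower without overlap. In bulk RNA, fewer cells of a kind and less RNA per cell cannot be told apart. Other lists differed too. Of 5 endoderm and epithelium markers tested, 3 were lower without overlap, and the list summed to 10.2 and 12.3 in RFP-positive cells, against 12.5 and 24.8 in RFP-negative cells, with Afp below the background mark on all arrays. Of 4 pluripotency markers tested, 1 was lower, with Zfp42 below the mark on all arrays. The list summed to 501.7 and 404.0 in RFP-positive cells, against 582.3 and 484.9 in RFP-negative cells. Most of these sums came from Nanog, which overlapped, with log2 levels of 8.96 and 8.66 in RFP-positive cells, against 9.18 and 8.92. The other pluripotency markers tested stood far lower, Pou5f1 at 0.24 and −1.58 in RFP-positive cells, against 0.47 and 0.29. Whether the Nanog probe reports only Nanog transcript was not tested. The 5 markers of Flk-1+ mesoderm and endothelium held 4 that were higher, Kdr by 0.13. They summed to 59.9 and 66.0 in RFP-positive cells, against 56.5 and 53.8 in RFP-negative cells. Etv2 went the other way with overlap, at −0.72, with 3.21 and 2.22 in RFP-positive cells, against 3.77 and 3.10. Of 7 blood markers 2 were higher without overlap, Runx1 by 1.54 and Gata1 by 1.44, and 1 was lower, Spi1 at −1.11. The list summed to 5.34 and 3.48 in RFP-positive cells, against 2.74 and 2.37 in RFP-negative cells. Hbb-bh1 made up most of the first sum and overlapped, with log2 levels of 1.92 and 0.0049 in RFP-positive cells, against 0.57 and 0.44. The part of any of these markers in the member values was not tested.

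**Figure D3:**
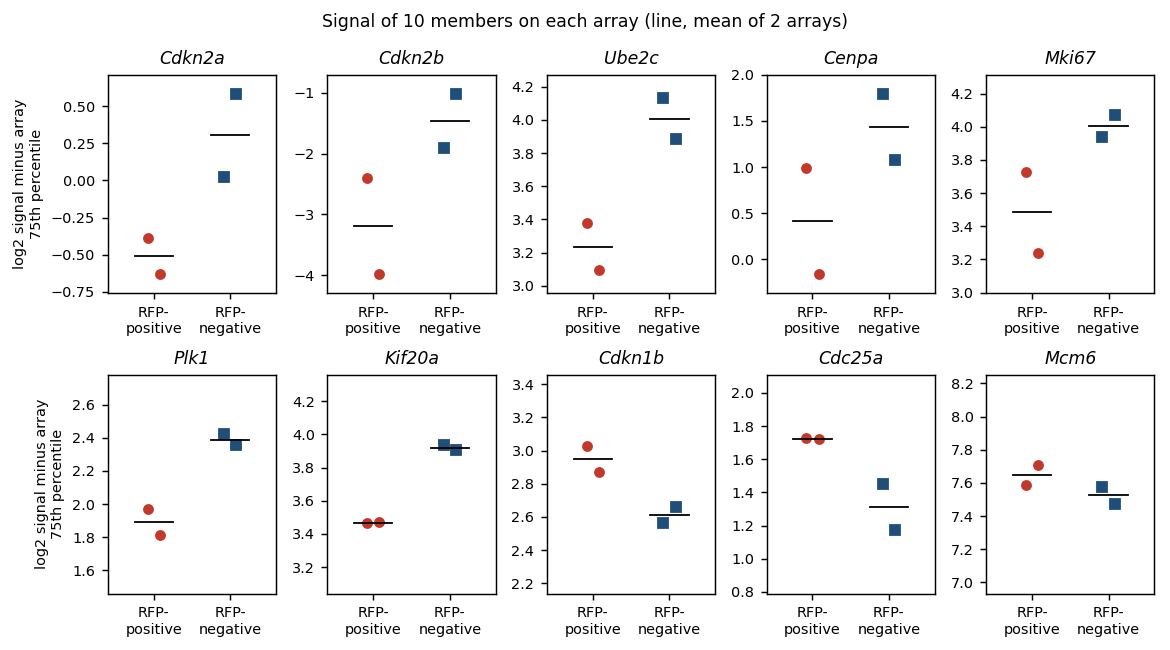
Log2 signal relative to the array's 75th percentile for 10 members on each array, RFP-positive left of RFP-negative, with a line at the mean of the 2 arrays of a fraction; each panel has its own vertical axis. Cdkn2a, Cdkn2b, Ube2c, Cenpa, Mki67, Plk1 and Kif20a are lower and Cdkn1b, Cdc25a and Mcm6 higher in RFP-positive cells without overlap, none past the threshold.

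Of the D cyclins and their kinases, 4 of 5 genes were tested, and the median was −0.26. Of these 4, 1 was lower and 1 higher without overlap, near the shares of all genes tested, 21.6% lower and 18.8% higher. Cdk4 had 5.77 and 5.36 in RFP-positive cells, against 5.87 and 5.88 in RFP-negative cells, a difference of −0.31 (SE 0.26). This was −0.10 without RFP-positive replicate 2 and −0.14 with normexp and quantile scaling. Its other probes differed by −0.27 and −0.15. Cyclin D1 (Ccnd1) overlapped, with 2.68 and 2.26 in RFP-positive cells and 2.62 and 2.77 in RFP-negative cells, and its difference of −0.22 was −0.015 without RFP-positive replicate 2. Cyclin D2 (Ccnd2) was higher without overlap by 0.14, with a gap of 0.0045 between the nearest arrays of the fractions. Under quantile, normexp and the deposited table's scaling no gene of the group was higher without overlap. The Ccnd3 probes disagreed, at −0.32 with overlap for the probe used and 0.30 without overlap for the other. The group's median was −0.0014 without RFP-positive replicate 2 and −0.11 with the mean of each gene's probes, and with normexp and quantile scaling no gene of the 4 was without overlap.

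The Rb and E2F group had a median of −0.0013 over 5 genes, and its sign turned under 3 of the other scalings; without RFP-positive replicate 1 it was −0.39. Rb1, the gatekeeper of G1, had 0.04 and 0.57 in RFP-positive cells, against 0.06 and 0.55 in RFP-negative cells, so that the replicates differed and the fractions did not separate. Its difference ran from −0.27 to 0.26 as arrays were left out. E2f1, an activator of S phase genes, was the member without overlap, 1 of 5 (20.0%) lower against 21.6% of all genes. It had 2.16 and 1.70 in RFP-positive cells and 2.27 and 2.29 in RFP-negative cells, a difference of −0.35 (SE 0.27, limma adjusted p 0.765), which was −0.12 without RFP-positive replicate 2. E2f2 and E2f8, which encodes a repressor of E2F targets, spread widely within the fractions and overlapped, with differences of 0.66 (SE 0.55) and 0.16 (SE 0.49). The pocket protein gene Rbl1 was at −0.26 and its second probe at −0.32.

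For the S phase kinases, cyclin A2 (Ccna2) had 2.71 and 2.58 in RFP-positive cells, against 2.95 and 2.91 in RFP-negative cells. This difference of −0.28 (SE 0.23) was without overlap. Cyclin E1 (Ccne1) was higher without overlap by 0.15 (SE 0.22), and its second probe by 0.27 with overlap. Ccne2 and Cdk2 overlapped, at 0.35 and −0.35. The group of 4 had a median of −0.069, which was 0.015 with median scaling, 0.0058 without RFP-positive replicate 2 and −0.0056 without RFP-negative replicate 1.

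The replication genes had the smallest median absolute difference of the role groups, 0.13, and all 12 lay between −0.19 and 0.22. With quantile scaling they lay between −0.12 and 0.37. They comprise the loaders of the replicative helicase (Cdc6, Cdt1), their inhibitor geminin (Gmnn), the helicase subunits Mcm2 to Mcm7, the sliding clamp Pcna and the ribonucleotide reductase subunits Rrm1 and Rrm2. Differences were above 0 for 6 and below 0 for 6. Without overlap 5 were higher (41.7%) and 1 lower (8.3%), against 18.8% and 21.6% of all genes. Mcm6 had 7.59 and 7.71 in RFP-positive cells, against 7.58 and 7.47 in RFP-negative cells, a difference of 0.12 (SE 0.23, 95% interval −0.47 to 0.72). This was 0.30 with quantile scaling, with or without normexp, and 0.063 without RFP-positive replicate 2. Mcm4 was higher without overlap by 0.22, Rrm2 by 0.19, Gmnn by 0.15 and Mcm3 by 0.13. Mcm2 was lower without overlap by −0.077, a separation that none of the other 4 scalings kept, and Pcna differed by −0.061 with overlap. Cdc6, Cdt1, Mcm5, Mcm7 and Rrm1 overlapped, between −0.19 and 0.035. The group's median of −0.013 has no settled sign: under quantile, median, normexp and the deposited table's scaling it was 0.067, 0.071, 0.047 and 0.051, and it was 0.13 without RFP-positive replicate 2, 0.083 without RFP-negative replicate 1, −0.057 without RFP-positive replicate 1 and −0.042 without RFP-negative replicate 2.

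**Figure D4:**
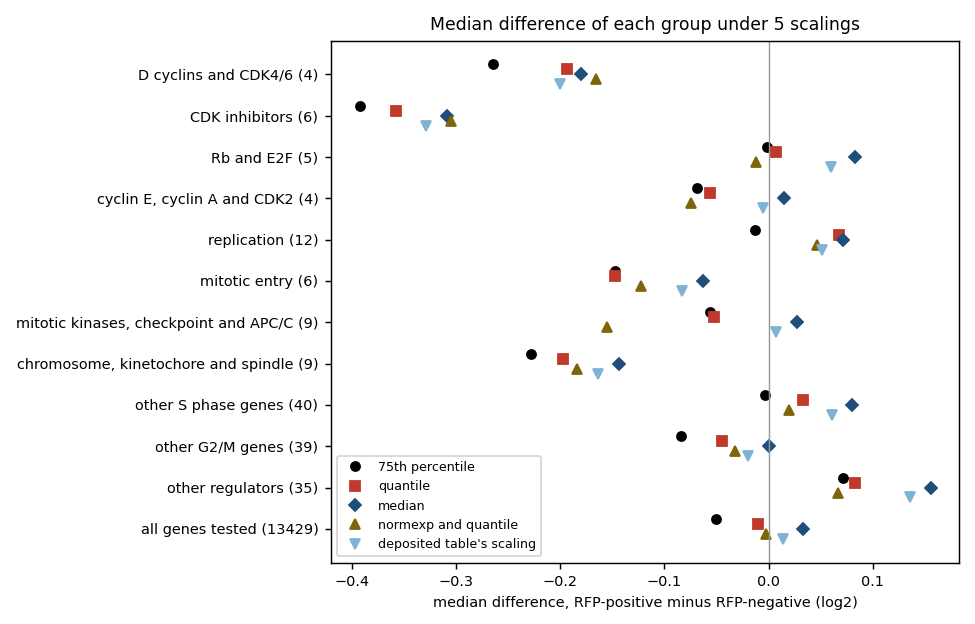
Median difference (RFP-positive minus RFP-negative, log2) of each role group, of 3 other cell cycle lists and of all genes tested, with the number of genes in brackets and 1 symbol for each of 5 scalings. The chromosome, kinetochore and spindle group, the CDK inhibitors, the D cyclins with their kinases, and mitotic entry lie left of 0 under every scaling shown. The replication group lies on both sides of 0.

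Genes of mitotic entry had a median of −0.15 over 6. Without overlap 2 were lower (33.3%) and 1 higher (16.7%), against 21.6% and 18.8% of all genes. Cyclin B1 (Ccnb1) had 2.67 and 2.79 in RFP-positive cells, against 2.77 and 2.65 in RFP-negative cells, a difference of 0.016 (SE 0.23, 95% interval −0.58 to 0.61). Its 3 probes lay between −0.043 and 0.087. Cdk1 differed by −0.11 with overlap. Of the CDC25 phosphatases, which remove inhibitory phosphates from CDKs, Cdc25a had 1.73 and 1.72 in RFP-positive cells and 1.45 and 1.17 in RFP-negative cells. Its difference of 0.41 (SE 0.24, limma adjusted p 0.751) was without overlap, and was 0.27 without RFP-negative replicate 2. Cdc25c was lower without overlap by −0.32, and Ccnb2 by −0.18, and Cdc25b overlapped at −0.29. Without RFP-negative replicate 2 the group's median was −0.028.

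Among the mitotic kinases, checkpoint and APC/C genes, Ube2c had the smallest p of any member. It encodes the ubiquitin-conjugating enzyme that works with the APC/C. Its signal was 3.38 and 3.09 in RFP-positive cells and 4.13 and 3.88 in RFP-negative cells, a difference of −0.77 (SE 0.25, 95% interval −1.43 to −0.11, limma adjusted p 0.745). A second probe, measured on all arrays, gave −0.75, also without overlap. Leaving out each array in turn gave −0.92 to −0.63. Plk1, a kinase of mitotic entry and spindle assembly, had 1.97 and 1.81 in RFP-positive cells, against 2.42 and 2.35 in RFP-negative cells. Its difference was −0.50 (SE 0.23).

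The kinases Aurka and Ttk were lower without overlap too. Aurka, which works at the centrosome, had 4.56 and 4.21 in RFP-positive cells, against 4.74 and 4.65 in RFP-negative cells, and differed by −0.31, which was −0.13 without RFP-positive replicate 2. Ttk, a kinase of the spindle checkpoint, differed by −0.37. The APC/C activator Cdc20, the substrate-recognising partner of the complex that Ube2c serves, was higher without overlap, with a difference of 0.11 (SE 0.22). Bub1, Bub1b, Mad2l1 and Aurkb overlapped, between −0.056 and 0.27. The group was therefore mixed, with 4 lower (44.4%) and 1 higher (11.1%) of 9, against 21.6% and 18.8% of all genes. Its median of −0.056 was 0.027 with median scaling, −0.35 without RFP-negative replicate 2 and −0.14 without RFP-positive replicate 1.

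The chromosome, kinetochore and spindle group leaned one way. All 9 genes tested had a difference below 0, against 54.7% of all genes, and their median was −0.23. In RFP-positive cells 7 were lower without overlap (77.8%), against 21.6% of all genes. The role groups were chosen with earlier results of these data known. With median scaling, and with the deposited table's scaling, all 9 stayed below 0. Those without overlap were then 3 (33.3%) and 4 (44.4%), against 16.6% and 19.5% of all genes lower. Without RFP-negative replicate 2, 7 of 9 were below 0. Cenpa, the histone H3 variant of centromeres, had 0.99 and −0.16 in RFP-positive cells, against 1.80 and 1.07 in RFP-negative cells. Its difference of −1.02 (SE 0.49, limma adjusted p 0.745) was −0.45 without RFP-positive replicate 2.

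Mki67, the proliferation marker that coats mitotic chromosomes, had 3.73 and 3.24 in RFP-positive cells, against 3.94 and 4.07 in RFP-negative cells. Its difference was −0.52 (SE 0.28, limma adjusted p 0.750), −0.35 by its second probe and −0.27 without RFP-positive replicate 2. Kif20a, a kinesin of cytokinesis, had the closest replicates of the lower genes, 3.46 and 3.47 in RFP-positive cells and 3.94 and 3.91 in RFP-negative cells, with a difference of −0.45 (SE 0.22). Birc5, which encodes survivin of the chromosomal passenger complex, had 6.93 and 6.54 in RFP-positive cells, against 7.06 and 6.97 in RFP-negative cells. Its 3 probes differed by −0.28, −0.43 and −0.57, the first without overlap and the others with it. The first was −0.084 without RFP-positive replicate 2 and −0.11 with quantile scaling. The DNA topoisomerase gene Top2a overlapped, with 1.27 and 1.13 in RFP-positive cells and 1.17 and 1.64 in RFP-negative cells, and its sign turned without RFP-negative replicate 2. Kif23, Kif11 and Nusap1, genes of the midbody and spindle, were lower without overlap by −0.23, −0.19 and −0.13, and the kinetochore motor gene Cenpe overlapped at −0.13.

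**Figure D5:**
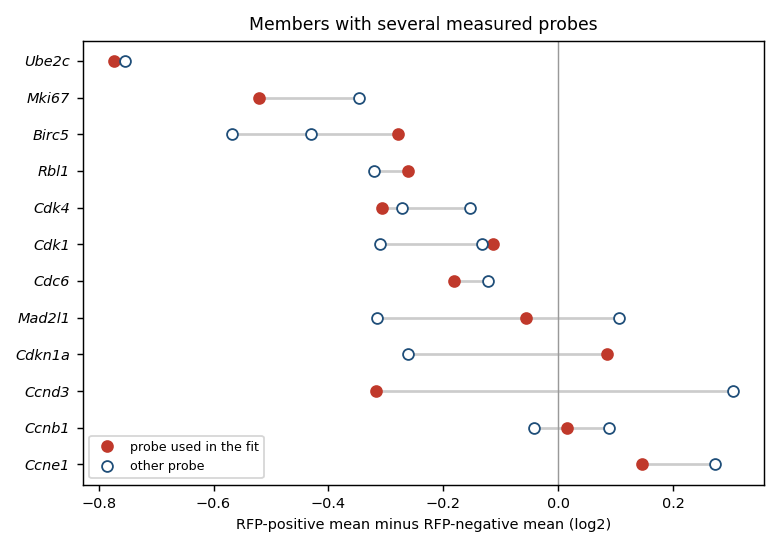
Difference (RFP-positive mean minus RFP-negative mean, log2) of every probe well above background on all 4 arrays, for the 12 members with more than 1 such probe. For 8 members all probes have 1 sign, among them Ube2c, Mki67 and Birc5, and for Mad2l1, Cdkn1a, Ccnd3 and Ccnb1 they do not.

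Beyond the members, 118 other cell cycle genes in 3 lists were read, of which 114 were tested and 0 passed the threshold, with 0 at an unadjusted p under 0.05 in the limma fit. The 40 other S phase genes had a median of −0.0035, which was 0.080 with median scaling. Without overlap 1 was lower (2.5%) and 12 higher (30.0%), against 21.6% and 18.8% of all genes tested. With quantile scaling 1 was lower (2.5%) and 8 higher (20.0%), against 20.1% and 20.4% of all genes. With normexp 2 were lower (5.0%) and 8 higher (20.0%), against 20.0% and 20.5%. Their genes of smallest p were Cdc45, a helicase subunit, at 0.64 (SE 0.26), Uhrf1, which recruits the maintenance DNA methyltransferase, at 0.54 (SE 0.23), and Mcm10, an initiation factor, at 0.42 (SE 0.23). These 3 were higher without overlap. Without RFP-positive replicate 2 there were 22 higher (55.0%) and 2 lower (5.0%), against 34.3% and 32.0% of all genes. Without RFP-positive replicate 1 there were 15 higher (37.5%) and 22 lower (55.0%), against 34.5% and 46.9% of all genes.

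The 39 other G2/M genes tested had a median of −0.084, 22 of them below 0, with 8 lower (20.5%) and 4 higher (10.3%) without overlap, near the 21.6% lower of all genes and below the 18.8% higher. Dlgap5, a spindle protein gene, was lower without overlap at −0.75 (SE 0.35), Smc4, a condensin subunit, was higher without overlap at 0.42 (SE 0.22), and the kinesin gene Kif18a overlapped at 1.05 (SE 0.59). The 35 other regulators tested had a median of 0.072. Without overlap 5 were lower (14.3%) and 9 higher (25.7%), against 21.6% and 18.8% of all genes. Wee1, the kinase that places the inhibitory phosphate CDC25 removes, was higher at 0.55 (SE 0.25), the MuvB subunit gene Lin54 at 0.50 (SE 0.24) and the ubiquitin ligase gene Fbxw7, which acts on cyclin E, at 0.47 (SE 0.24). All 3 were without overlap, and none passed the threshold (limma adjusted p 0.745 to 0.750).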

How the data were processed

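Total RNA of 4 sorted samples, 2 RFP-positive and 2 RFP-negative by the labels, was hybridised to one-colour arrays on 1 slide in 1 scan. Per the file headers, the scanner intensity values are processed signals from version 10.10.1.1 of Agilent Feature Extraction. In the deposited value table each array's intensities are those signals times 1 constant, between 5.39 and 6.45. Signals are not counts, so the number of arrays limits the precision.

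Each array has 62976 spots. The 3671 controls and 115 to 153 outliers were not used. Log2 signals were taken relative to each array's 75th percentile and averaged per probe. RefSeq accessions (GRCm38.p6 table) named 27229 of 55681 probes, and the probe with the highest mean stood for its gene. Genes well above background on both arrays of a fraction, 13429, entered the fit by limma (version 3.58.1, R 4.3.3: lmFit, eBayes, no block, two-sided, threshold 0.05), tested on simulated data. Without overlap means that both RFP-positive arrays lay on one side of both RFP-negative arrays. Intervals are 95% intervals of the moderated fit.

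Members, role groups and lists were chosen with earlier results of these data known. Array values are given for members without overlap at 0.5 or more, the member of highest signal in each group, Mki67, Top2a and the CDK inhibitors, and those of Plk1, Kif20a, Cdc25a, Ccnd1 and Rb1 were added after their values were seen. Other lists give the 3 genes of smallest p. Proteins were not compared, and promoters on chromosome 18 are not shown. Alternatives were other scalings, normexp (offset 50, median signals), filters, probe rules, variance models, leaving out each array, blocking on the replicate number, and, chosen after seeing the data, the deposited table with its own scaling.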

Additional observations from a re-analysis of the deposited data

How the results depend on the processing

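Over 15 alternatives no member passed the threshold, and the lowest adjusted p of a member was 0.133, without RFP-positive replicate 1 (up to 0.998 when other arrays were left out). With the replicate number as a block, 0 members passed, the lowest adjusted p was 0.637 and 2 had an unadjusted p under 0.05; the labels give no shared culture or day for a number, the deviations of same-numbered samples correlated at 0.092 across all genes, and no call changed. Median scaling brought the median member difference to −0.057; the median of all genes was then 0.033. Leaving out each array gave −0.19 to −0.084, with 23 to 32 members lower and 12 to 17 higher without overlap (41.8% to 58.2% and 21.8% to 30.9%), where all genes had 32.0% to 46.9% lower and 30.3% to 34.5% higher.

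Group medians turned sign where they lay near 0. Replication had 0.067 (quantile), 0.071 (median scaling), 0.047 (normexp) and 0.051 (the deposited table's scaling), Rb and E2F 0.0066, 0.083 and 0.060 (quantile, median and deposited), mitotic kinases, checkpoint and APC/C 0.027 and 0.0075 (median and deposited), and cyclin E, cyclin A and CDK2 0.015 (median). With arrays left out, replication ran from −0.057 to 0.13 and cyclin E, cyclin A and CDK2 from −0.083 to 0.0058. Of 22 members given array by array, 4 turned sign when an array was left out: Cdkn1a (−0.27 to 0.44), Ccnb1 (−0.047 to 0.078), Top2a (−0.44 to 0.031) and Rb1 (−0.27 to 0.26), the last being also the median of its group under the scalings above. Over all 55 members tested, 19 turned sign when an array was left out and 6 under another scaling. Cdkn1a was also at −0.088 as the mean of its probes. The cause of these turns was not tested. Cdk6 and Cenpf were too close to background to compare.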
